A study of Mus musculus with 25 samples.

Results

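DNA replication and S phase genes are followed here in mouse breast tumors treated with H3B-8800 or vehicle. The set is 40 named genes in 8 role groups: the MCM helicase, the factors that load it at origins, CDC45 and the GINS complex, the sliding clamp and its loader, the DNA polymerases and primase, replication protein A, nucleotide synthesis, and cyclin E, E2F1 and geminin. All 40 were found by symbol among the 17591 genes measured, and all 40 passed the filter on low counts. They hold 495 of the 163315 introns used. Tumors of 4 models of triple-negative breast cancer, each derived from genetically engineered mice, were grown in the breast of female mice that received the transplant at 4 to 5 weeks of age. PyMT-M in C57BL/6 mice has 4 H3B-8800 and 4 vehicle libraries, AT3 in C57BL/6 mice has 2 H3B-8800 and 3 vehicle libraries, and 2208L and T11, both in Balb/c mice, each have 3 H3B-8800 and 3 vehicle libraries. By their labels PyMT-M and 2208L responded to the drug while AT3 and T11 did not, and replicates are different tumors. Each library is polyadenylated RNA of a whole tumor, so host cells are included, and the treated mice had received daily dosing.

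A cell copies its genome in S phase. The origin recognition complex marks origins, CDC6 and CDT1 load the ring of MCM proteins there, and CDC45 and GINS turn that ring into a working helicase. Replication protein A coats the opened strands, primase and polymerase alpha begin each new strand, and polymerases delta and epsilon extend it while held by the clamp PCNA, which the RFC complex loads. Many of these genes are transcribed under E2F factors late in G1, and their RNA marks proliferating cells in tumors. H3B-8800, a splicing modulator given by mouth, targets SF3B, the protein complex with which U2 snRNP selects the branch point.

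For each intron, counts of reads lying inside it and of reads overlapping it were available. Spliced reads are the overlapping minus the inside reads. How unspliced reads that cross an exon border were counted is not given in the sources used here, so some may be among the spliced reads. The level of a gene is the sum of its spliced reads, given as CPM (counts scaled to library size), and the percent inside an intron is its inside reads over inside plus spliced reads. Libraries held 9820825 to 19700955 spliced and 858362 to 5684308 inside reads. Over the 200 introns of the 40 genes that could be tested, the pooled percent inside was 31.9% ± 3.3 in H3B-8800 and 15.4% ± 3.7 in vehicle PyMT-M tumors (SD, n = 4 each). In AT3 it was 23.1% ± 6.1 in H3B-8800 (n = 2) and 13.6% ± 5.0 in vehicle tumors (n = 3). In 2208L it was 16.8% ± 1.7 in H3B-8800 and 9.74% ± 2.4 in vehicle tumors (n = 3 each). T11 ran the other way, with 11.2% ± 1.8 in libraries labelled H3B-8800 and 17.6% ± 6.4 in libraries labelled vehicle (n = 3 each). Over all 52042 introns tested T11 had 12.6% in libraries labelled H3B-8800 and 17.0% in libraries labelled vehicle. T11 libraries are therefore named by their labels throughout and enter no average. Whether the T11 labels were exchanged was not tested, so each direction given for T11 holds only as labelled. Skeletal muscle or B cell transcripts stood out in 6 libraries: PyMT-M H3B-8800 replicates 1 and 2, 2208L vehicle replicate 1, AT3 vehicle replicate 2, T11 labelled vehicle replicate 3 and T11 labelled H3B-8800 replicate 2. Epcam, an epithelial surface protein, lay between 763 and 1951 CPM in PyMT-M and 2208L libraries but at or below 8.07 CPM in T11 and AT3 libraries. The epithelial markers Krt8 and Cdh1 were likewise lower in every T11 and AT3 library. Krt18 was lower there too but present, at 93.1 to 421 CPM against 927 to 1787 CPM in PyMT-M and 2208L libraries. Krt5 was at or below 0.528 CPM in 2208L libraries.

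**Figure D1:**
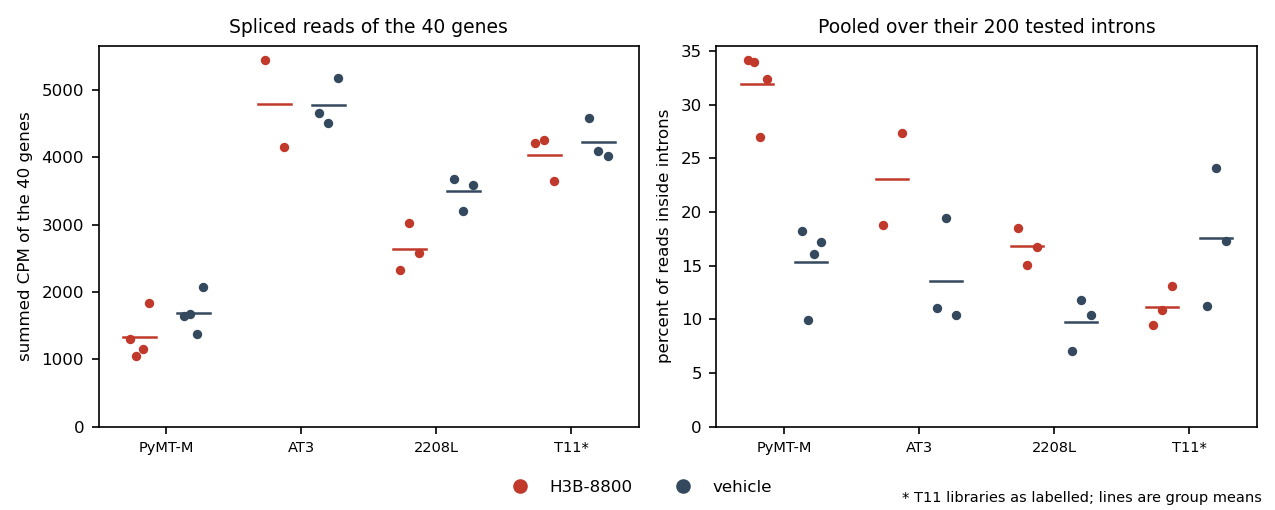
Summed CPM of the 40 replication genes (left) and the percent of reads inside introns, pooled over their 200 tested introns (right), in each of the 25 libraries. Points are libraries and lines are group means. The H3B-8800 libraries of PyMT-M lie at 27.0% to 34.1% inside, above the vehicle libraries at 9.98% to 18.2%, while in T11 the libraries labelled H3B-8800 have the lower mean.

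H3B-8800 tumors had less spliced RNA of many replication genes in PyMT-M and 2208L, and no change was called in AT3. In PyMT-M 16 of the 40 genes fell and 1 rose, where 14.6% of all 13001 genes tested fell and 10.2% rose. In 2208L 8 of 40 fell and 0 rose, against 5.67% and 4.67% of all genes. In AT3 edgeR called 0 of 40 (0.3% of all genes were called) and DESeq2 called 1. There 2 of the 40 had an unadjusted p under 0.05 in edgeR, and the share of all genes at that p is not given here. The median log2 fold change of the 40 genes was -0.41 in PyMT-M, -0.06 in AT3 and -0.47 in 2208L, where that of all genes was 0.02, 0.00 and 0.00. The AT3 median was -0.27 without H3B-8800 replicate 1 and 0.14 without H3B-8800 replicate 2, so its sign depended on which treated library was kept. Of the 40, 34 had a negative fold change in PyMT-M, 21 in AT3 and 38 in 2208L. No gene passed in all 3 models. Over the mean of the 3 models 14 fell and 1 rose, where 13.2% of all genes fell and 10.7% rose. A call is an adjusted p under 0.05 over all genes tested. The PyMT-M count was 7 (6 lower) without the 6 libraries with muscle or B cell transcripts, and 10 without vehicle replicate 4 or without H3B-8800 replicate 3. Leaving out the 6 libraries keeps only H3B-8800 replicates 3 and 4 of PyMT-M, and replicate 4 was the highest of its group in 36 of the 40 genes. Whether a call lost in that fit reflects those transcripts or the smaller groups was not tested. The 2208L count was 0 without those 6 libraries, 1 and 3 without vehicle replicates 1 and 3, and 0, 5 and 3 without H3B-8800 replicates 1, 2 and 3. The mean of the 3 models gave 9 calls without those 6 libraries.

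**Figure D2:**
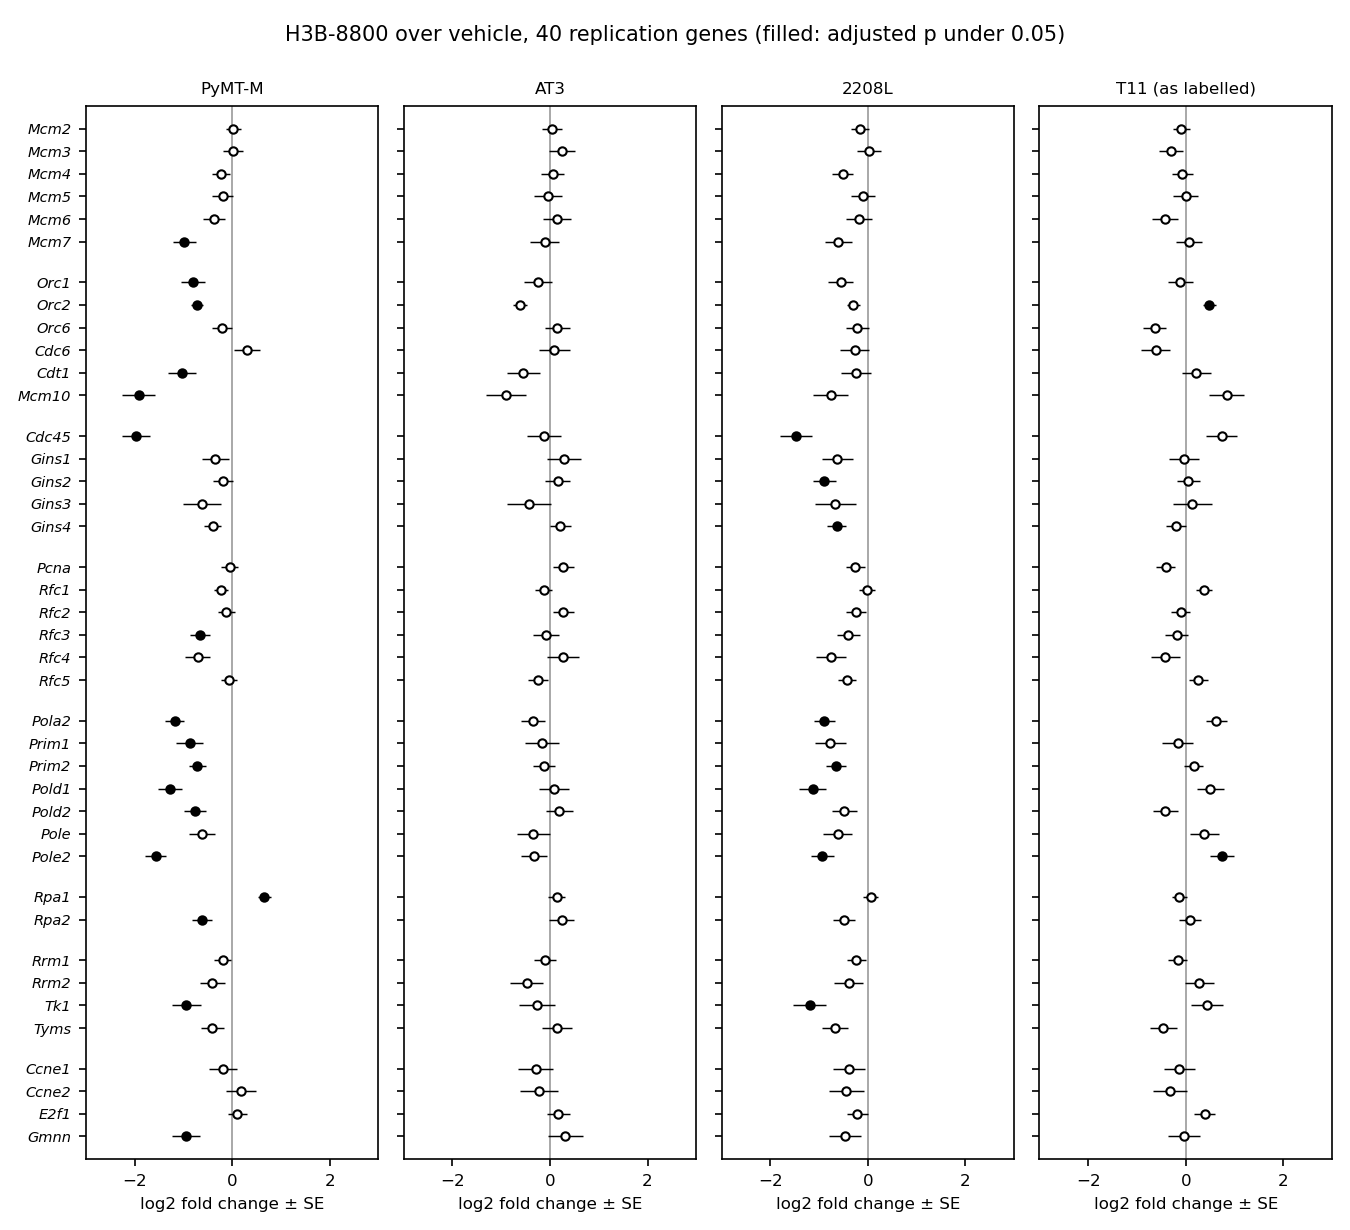
Log2 fold change of spliced reads (x axis, H3B-8800 over vehicle, bars are SE) for each of the 40 genes (rows, in 8 role groups) in the 4 models. Filled points have an adjusted p under 0.05. They number 17 in PyMT-M, 0 in AT3, 8 in 2208L and 2 in T11 as labelled, and the filled points of PyMT-M and 2208L are on the negative side except Rpa1 in PyMT-M.

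Among the 6 MCM helicase genes, Mcm7 fell in PyMT-M and the other 5 passed in no model. Mcm7 encodes a subunit of the ring and had 44.2, 29.7, 35.1 and 79.97 CPM in H3B-8800 tumors, against 91.5, 94.8, 64.2 and 122 CPM in vehicle tumors, a log2 fold change of -0.98 ± 0.24 (SE), adjusted p = 0.0052. H3B-8800 replicate 4 lay within the vehicle range and the other 3 were below it. In 2208L Mcm7 had 112, 164 and 118 CPM in H3B-8800 tumors, against 203, 184 and 214 CPM in vehicle tumors, without overlap, but the test was not passed (-0.61 ± 0.27 (SE), adjusted p = 0.16). In AT3 it had 307 and 217 CPM in H3B-8800 tumors, against 279, 261 and 308 CPM in vehicle tumors, with overlap. Mcm2 to Mcm6 had log2 fold changes between -0.37 and 0.03 in PyMT-M, and between -0.51 and 0.03 in 2208L, none of which passed. Without the 6 libraries with muscle or B cell transcripts Mcm7 gave -0.65 in PyMT-M, adjusted p = 0.163.

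Of the 6 genes that mark origins and load the helicase, Orc1, Orc2, Cdt1 and Mcm10 fell in PyMT-M, and Cdc6 and Orc6 did not pass. Orc2, a subunit of the origin recognition complex, had 21.7, 20.4, 22.1 and 24.5 CPM in H3B-8800 tumors, against 39.96, 39.7, 34.3 and 32.1 CPM in vehicle tumors. The groups did not overlap, and the log2 fold change was -0.72 ± 0.12 (SE), adjusted p = 0.000191. In AT3 it had 68.9 and 60.2 CPM in H3B-8800 tumors, against 105, 99.4 and 92.7 CPM in vehicle tumors, again without overlap, at -0.62 ± 0.15 (SE), adjusted p = 0.0772, and in 2208L it had 51.04, 54.8 and 44.9 CPM in H3B-8800 tumors, against 60.1, 63.7 and 61.6 CPM in vehicle tumors, at -0.30 ± 0.13 (SE), adjusted p = 0.156. In T11 it had 93.9, 118 and 89.2 CPM in libraries labelled H3B-8800, against 73.5, 64.5 and 77.6 CPM in libraries labelled vehicle, and was higher in the libraries labelled H3B-8800, at 0.48 ± 0.13 (SE), adjusted p = 0.0233. Mcm10, which helps to activate the loaded helicase, fell by 1.91 in PyMT-M (adjusted p = 0.000374), with -0.90 in AT3 and -0.76 in 2208L, neither of which passed. Cdt1 had -1.03 ± 0.28 (SE), adjusted p = 0.0108 and Orc1, the largest subunit of the origin recognition complex, had -0.80 ± 0.24 (SE), adjusted p = 0.0204. With all reads that overlap an intron as the level, Cdt1 gave -0.19 and Orc1 -0.15 in PyMT-M, and neither passed. Without the 6 libraries with muscle or B cell transcripts Cdt1 gave -0.71 (adjusted p = 0.185) and Orc1 -0.76 (adjusted p = 0.163). The call of Orc1 was lost in 7 of 36 alternatives in all.

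Cdc45, the factor that joins MCM and GINS in the working helicase, had the largest decrease among the 40 genes in PyMT-M and in 2208L. It had 5.96, 5.10, 4.95 and 9.28 CPM in H3B-8800 tumors, against 22.96, 23.9, 19.8 and 32.6 CPM in vehicle tumors, a log2 fold change of -1.97 ± 0.29 (SE), adjusted p = 7.16e-05. Every H3B-8800 library was below every vehicle library. In 2208L it had 26.5, 39.2 and 37.3 CPM in H3B-8800 tumors, against 113, 85.8 and 87.98 CPM in vehicle tumors, again without overlap, at -1.47 ± 0.32 (SE), adjusted p = 0.00704. In AT3 it had 141 and 72.7 CPM in H3B-8800 tumors, against 123, 94.8 and 133 CPM in vehicle tumors, with the 2 H3B-8800 libraries the highest and the lowest of the 5, at -0.13 ± 0.35 (SE), adjusted p = 0.946. T11 gave 107, 101 and 80.8 CPM in libraries labelled H3B-8800, against 94.7, 43.2 and 36.1 CPM in libraries labelled vehicle, which overlap. The GINS genes Gins2 and Gins4 fell in 2208L (-0.89 ± 0.23 (SE), adjusted p = 0.0201 for Gins2, -0.64 ± 0.20 (SE), adjusted p = 0.0443 for Gins4) and did not pass in PyMT-M, where they had -0.19 and -0.40. Gins1 and Gins3 passed in no model. In 2208L the call of Gins4 was lost in 19 of 36 alternatives and that of Gins2 in 4. Without the 6 libraries with muscle or B cell transcripts Cdc45 in 2208L gave -1.32, adjusted p = 0.052.

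Of the clamp Pcna and the 5 clamp loader genes, Rfc3 fell in PyMT-M and the others passed in no model. Rfc3 had 40.95, 44.8, 28.6 and 44.7 CPM in H3B-8800 tumors, against 59.02, 59.5, 52.3 and 82.1 CPM in vehicle tumors, without overlap, at -0.67 ± 0.21 (SE), adjusted p = 0.022. It had 47.3, 57.02 and 46.6 CPM in H3B-8800 tumors, against 74.7, 60.5 and 64.2 CPM in vehicle tumors in 2208L, also without overlap, at -0.40 ± 0.24 (SE), adjusted p = 0.291, and 70.9 and 39.5 CPM in H3B-8800 tumors, against 56.1, 55.5 and 62.5 CPM in vehicle tumors in AT3, where the vehicle libraries lay between the treated ones. In T11 it had 73.4, 71.98 and 67.4 CPM in libraries labelled H3B-8800, against 116, 66.8 and 59.9 CPM in libraries labelled vehicle, a range for labelled vehicle that spans the other group. Pcna had -0.05 ± 0.17 in PyMT-M, 0.28 ± 0.22 in AT3 and -0.26 ± 0.20 in 2208L (log2 fold change ± SE). Processed copies of Pcna and of Tyms are named in GENCODE M21, and how reads shared with such copies were counted is not given in the sources used here.

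The polymerases and primase had 6 of 7 genes lower in PyMT-M and 4 of 7 lower in 2208L, where 14.6% and 5.67% of all genes fell. By count this was more than in any other role group, but this group also holds the most genes. CDC45 and GINS had a larger share lower in 2208L, 3 of 5, and 1 of 5 lower in PyMT-M. Pole2, the accessory subunit of polymerase epsilon, had 10.3, 11.4, 13.3 and 18.4 CPM in H3B-8800 tumors, against 37.2, 38.4, 32.1 and 50.8 CPM in vehicle tumors, at -1.57 ± 0.21 (SE), adjusted p = 2.84e-05. The groups did not overlap in PyMT-M, nor in 2208L, where it had 15.4, 22.6 and 18 CPM in H3B-8800 tumors, against 42, 32.8 and 32.3 CPM in vehicle tumors, at -0.93 ± 0.24 (SE), adjusted p = 0.0189. In AT3 it had 110.4 and 74.03 CPM in H3B-8800 tumors, against 111, 99.7 and 138 CPM in vehicle tumors, with overlap, and -0.33 ± 0.27 (SE), adjusted p = 0.664. In the libraries labelled as treated in T11 it was higher, with 48.96, 54.01 and 37.1 CPM in libraries labelled H3B-8800, against 35.4, 23.4 and 24.9 CPM in libraries labelled vehicle, at 0.75 ± 0.24 (SE), adjusted p = 0.0464. Pold1, the catalytic subunit of polymerase delta, gave -1.27 ± 0.25 (SE), adjusted p = 0.000912 in PyMT-M and -1.13 ± 0.28 (SE), adjusted p = 0.015 in 2208L. Pola2, the regulatory subunit of polymerase alpha, gave -1.18 ± 0.19 (SE), adjusted p = 0.000196 in PyMT-M and -0.89 ± 0.22 (SE), adjusted p = 0.0144 in 2208L. The large primase subunit Prim2 fell in both models, by 0.71 in PyMT-M and 0.65 in 2208L on the log2 scale, while the small subunit Prim1 (-0.87) and the delta subunit Pold2 (-0.77) fell in PyMT-M. Pole, the catalytic subunit of polymerase epsilon, gave -0.62 ± 0.27 (SE), adjusted p = 0.096 in PyMT-M and -0.62 ± 0.30 (SE), adjusted p = 0.197 in 2208L. Without the 6 libraries with muscle or B cell transcripts, Pole2, Pold1 and Pola2 passed in PyMT-M while Prim1, Prim2 and Pold2 did not, and none of the 4 genes passed in 2208L. The call of Prim2 in 2208L was lost in 17 of 36 alternatives, and that of Pole2 in T11 in 14 of 35.

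Of the replication protein A genes among the 40, Rpa1 rose and Rpa2 fell in PyMT-M. Rpa1, the large subunit that binds DNA, had 114, 132, 154 and 144 CPM in H3B-8800 tumors, against 68.3, 81.9, 106 and 88.02 CPM in vehicle tumors, and rose at 0.66 ± 0.13 (SE), adjusted p = 0.00124. The groups did not overlap. Rpa1 was the only gene of the 40 that rose in PyMT-M, AT3 or 2208L, and it passed in PyMT-M in all 36 alternatives run. It gave 150.4 and 146 CPM in H3B-8800 tumors, against 148, 116 and 140.3 CPM in vehicle tumors in AT3, and 102, 124 and 111 CPM in H3B-8800 tumors, against 111, 99.6 and 112 CPM in vehicle tumors in 2208L, with overlap in both. In T11 it had 141, 141 and 124 CPM in libraries labelled H3B-8800, against 126, 152 and 167 CPM in libraries labelled vehicle. Rpa2, the middle subunit, fell in PyMT-M at -0.61 ± 0.20 (SE), adjusted p = 0.0291, but not without the 6 libraries with muscle or B cell transcripts (-0.40, adjusted p = 0.354).

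Of the 4 genes of nucleotide synthesis, Tk1 fell in PyMT-M and 2208L, and Rrm1, Rrm2 and Tyms passed in no model. Tk1 encodes the thymidine kinase that salvages thymidine in S phase. It had 15.1, 9.92, 9.28 and 25.7 CPM in H3B-8800 tumors, against 23.1, 26.3, 19.8 and 45.8 CPM in vehicle tumors, at -0.94 ± 0.29 (SE), adjusted p = 0.0241, with H3B-8800 replicate 4 inside the vehicle range. In 2208L it had 29.1, 40.6 and 40.8 CPM in H3B-8800 tumors, against 85.8, 75 and 92.6 CPM in vehicle tumors, without overlap, at -1.20 ± 0.34 (SE), adjusted p = 0.0281. It had 69.3 and 45.7 CPM in H3B-8800 tumors, against 73.6, 51.9 and 82.7 CPM in vehicle tumors in AT3, and 102, 92.2 and 81.6 CPM in libraries labelled H3B-8800, against 89.3, 54.3 and 60.1 CPM in libraries labelled vehicle in T11. Rrm2, the small subunit of ribonucleotide reductase, gave -0.41 ± 0.26 in PyMT-M, -0.48 ± 0.33 in AT3 and -0.39 ± 0.30 in 2208L. Without the 6 libraries with muscle or B cell transcripts Tk1 gave -0.66 in PyMT-M and -1.16 in 2208L, and passed in neither.

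Cyclin E genes and E2f1 did not pass in any model, whereas geminin fell in PyMT-M. Gmnn encodes the protein that holds CDT1 inactive after S phase begins. It had 12, 8.72, 10.5 and 22.1 CPM in H3B-8800 tumors, against 21.6, 30.01, 14.6 and 36.4 CPM in vehicle tumors, at -0.94 ± 0.29 (SE), adjusted p = 0.0226, and H3B-8800 replicate 4 was inside the vehicle range. It had 41.04, 52 and 46.7 CPM in H3B-8800 tumors, against 80.8, 53.8 and 58.8 CPM in vehicle tumors in 2208L, without overlap, at -0.47 ± 0.33 (SE), adjusted p = 0.385. In AT3 the 2 treated libraries lay on both sides of the vehicle group, with 167 and 74.8 CPM in H3B-8800 tumors, against 94.9, 91.3 and 104.4 CPM in vehicle tumors. In T11 it had 63.1, 62.3 and 52.1 CPM in libraries labelled H3B-8800, against 75.7, 48.5 and 57.2 CPM in libraries labelled vehicle, which overlap. E2f1, a transcription factor of the G1 to S transition, gave 0.11 ± 0.20 in PyMT-M, 0.17 ± 0.24 in AT3 and -0.22 ± 0.22 in 2208L (SE). Among these 3 models Ccne1 ranged from -0.39 in 2208L to -0.19 in PyMT-M, and Ccne2 from -0.44 in 2208L to 0.18 in PyMT-M. Without the 6 libraries with muscle or B cell transcripts Gmnn gave -0.60 in PyMT-M, adjusted p = 0.311.

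**Figure D3:**
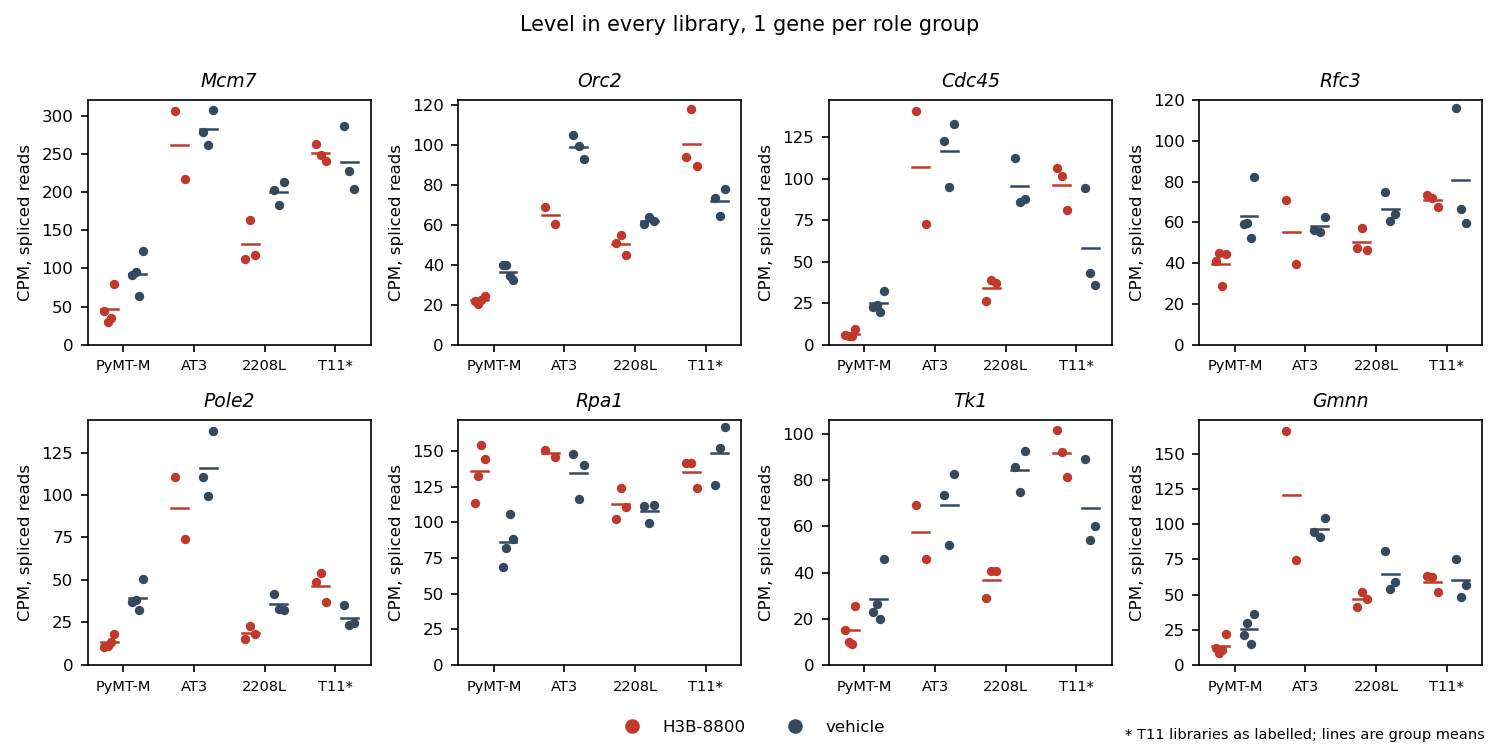
CPM of spliced reads (y axes, from 0) of 1 gene per role group in each library, H3B-8800 left of vehicle in each model. Points are libraries and lines are group means. In PyMT-M Orc2, Cdc45, Rfc3 and Pole2 are lower and Rpa1 higher in every H3B-8800 library than in any vehicle library.

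Replicate 4 of the PyMT-M H3B-8800 group stood above the others of its group in 36 of the 40 genes, and 23 genes passed in PyMT-M without it. Such an order was not particular to that group. In AT3, H3B-8800 replicate 1 was above replicate 2 in 34 genes and below it in 6. In 2208L, H3B-8800 replicate 2 was highest in 34 and replicate 1 lowest in 34. PyMT-M vehicle replicate 3 and T11 labelled H3B-8800 replicate 3 were each lowest in 34. Counted by overlap alone, 7 genes were lower and 1 higher in every H3B-8800 library than in every vehicle library of PyMT-M, where 16% and 13% of all genes were. In AT3 7 were lower and 0 higher (13.1% and 11.3% of all genes), and in 2208L 25 were lower and 0 higher (20.8% and 21% of all genes). In T11 7 were higher and 4 lower in libraries labelled H3B-8800 (14% and 12.2% of all genes). Orc2, Mcm10 and Pola2 were lower without overlap in PyMT-M, AT3 and 2208L, and higher without overlap in T11 as labelled. The share of all genes with this joint pattern was not counted, so it is not known whether the 40 genes stand out in it.

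Whether the models differed in their response was tested directly. The effect of H3B-8800 in PyMT-M minus that in AT3 passed for 1 of the 40 genes, Cdc45, at -1.84 ± 0.45 (SE), adjusted p = 0.0466, where 1.1% of all genes passed, with 0.761% of all genes on the negative side. That call was lost in 28 of 36 alternatives, over which the difference lay between -2.24 and -1.29, and 4 of the 40 genes passed without PyMT-M H3B-8800 replicate 4 or without AT3 H3B-8800 replicate 2. Pole2 (-1.23 ± 0.33 (SE), adjusted p = 0.0693) and Pold1 (-1.34 ± 0.39 (SE), adjusted p = 0.0876) did not pass. PyMT-M minus 2208L gave 0 calls by edgeR and by DESeq2 (1.92% of all genes passed by edgeR, 1.31% on the negative side). At an unadjusted p under 0.05 in edgeR were 4 of the 40 genes, and the share of all genes at that p is not given here. In that comparison Cdc45 had -0.50 ± 0.42, Pole2 -0.63 ± 0.32 and Rpa1 0.60 ± 0.20 (log2 difference ± SE). Without PyMT-M H3B-8800 replicate 4 it gave 1 call. Both comparisons share the PyMT-M libraries.

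In T11 the libraries labelled H3B-8800 had Orc2 and Pole2 above the libraries labelled vehicle past the test, and 0 of the 40 genes lower, where 6.66% of all genes were higher and 5.07% lower. The median log2 fold change of the 40 genes was -0.03, and that of all genes was -0.04. Gene by gene, Mcm10 had 0.84 ± 0.35, Cdc45 0.73 ± 0.31, Pola2 0.63 ± 0.22 and Pold1 0.50 ± 0.28, and none of these 4 passed. The lowest value was that of Orc6, -0.63 ± 0.23 (SE), adjusted p = 0.0838. The count of 2 became 0 without labelled H3B-8800 replicate 2, 6 (5 higher, 1 lower) without labelled vehicle replicate 1, and 1 when labelled vehicle replicate 2 (1 lower), labelled vehicle replicate 3 or labelled H3B-8800 replicate 1 (1 higher each) was left out. It was also 1 without PyMT-M H3B-8800 replicate 3, 2208L vehicle replicate 3 or 2208L H3B-8800 replicates 1 or 3, and 0 without the 6 libraries with muscle or B cell transcripts.

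Other replication genes outside the 40 were read from a list of 61, of which 60 were tested. In PyMT-M 28 of them fell and 5 rose, where 14.6% of all genes fell and 10.2% rose. In AT3 0 passed by edgeR and by DESeq2 (0.3% of all genes passed by edgeR). An unadjusted p under 0.05 in edgeR was reached by 7, and the share of all genes at that p is not given here. In 2208L 11 fell and 1 rose, where 5.67% of all genes fell and 4.67% rose. In T11 6 were higher and 1 lower in libraries labelled H3B-8800, where 6.66% of all genes were higher and 5.07% lower. Without the 6 libraries with muscle or B cell transcripts, 11 fell and 0 rose in PyMT-M, 2 fell and 0 rose in 2208L, and 0 passed in T11. For this list that fit and DESeq2 were added after seeing the data. Origin and licensing genes had 11 of 14 lower in PyMT-M and 5 of 14 in 2208L. Mcm8, a helicase relative that acts in recombination repair, gave -1.23 ± 0.17 (SE), adjusted p = 2.67e-05 in PyMT-M and -1.27 ± 0.18 (SE), adjusted p = 0.000597 in 2208L, and Orc4 rose in PyMT-M at 0.64 ± 0.15 (SE), adjusted p = 0.00354. Fork protection genes had 5 of 6 lower in PyMT-M, among them Timeless at -1.18 ± 0.23 (SE), adjusted p = 0.00102. Of the 8 genes of histone supply and chromatin assembly 5 fell in PyMT-M, among them Uhrf1, which recruits the maintenance methyltransferase Dnmt1, at -1.38 ± 0.28 (SE), adjusted p = 0.00132. Polymerase and lagging strand genes had 2 of 12 lower in PyMT-M, Rpa3 (-1.71) and Dna2 (-1.08). Rpa3 is the small subunit of replication protein A, so both Rpa2 and Rpa3 fell where Rpa1 rose. Of 15 cycle control genes 4 rose and 4 fell in PyMT-M, and Cdkn1a, the CDK inhibitor p21, rose at 0.92 ± 0.31 (SE), adjusted p = 0.0334 in PyMT-M and 1.33 ± 0.41 (SE), adjusted p = 0.044 in 2208L.

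Proliferation and cell type markers moved beside these changes. Of 6 proliferation markers that are not among the 40 genes, Mki67, Top2a and Plk1 fell in PyMT-M (-1.41, -1.26 and -1.22), where 14.6% of all genes fell. In 2208L 0 of 6 passed, where 5.67% of all genes fell, and all 6 fold changes were negative. In AT3 and T11 0 of 6 passed. The summed CPM of these 6 markers ranged from 93.8 to 282 in H3B-8800 and 230 to 458 in vehicle PyMT-M tumors, and from 566 to 860 in H3B-8800 and 887 to 1075 in vehicle 2208L tumors. Macrophage markers rose for 6 of 7 genes in PyMT-M and 6 of 7 in 2208L, where 10.2% and 4.67% of all genes rose. They had summed CPM of 544 to 802 in H3B-8800 and 125 to 349 in vehicle PyMT-M tumors, and 1314 to 1527 in H3B-8800 and 189 to 770 in vehicle 2208L tumors. Macrophage counts for AT3 and T11 are not given here. Fibroblast markers summed to 3002 to 5452 CPM in H3B-8800 and 1391 to 3964 CPM in vehicle PyMT-M tumors, and epithelial markers to 4111 to 5722 CPM in H3B-8800 and 3995 to 6490 CPM in vehicle PyMT-M tumors. Their part in the changes of the replication genes was not tested. In RNA of whole tumors, fewer cells of a type and less RNA per cell cannot be told apart.

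Before treatment effects are considered, the vehicle tumors of the models themselves differed. PyMT-M tumors had lower levels than AT3 tumors for 37 of the 40 genes, where 28% of all genes were lower and 32.1% higher, and lower levels than 2208L tumors for 35 of 40, where 22% of all genes were lower and 45.5% differed in either direction. The summed CPM of the 40 genes was 1695 ± 290 in PyMT-M (n = 4), 4780 ± 352 in AT3 and 3494 ± 249 in 2208L (SD, n = 3 each). The median log2 fold change was -1.58 against AT3 and -1.15 against 2208L. Cdt1 had the largest difference of the 40 genes against AT3, -3.34 ± 0.29 (SE), adjusted p = 3.88e-09, with -1.73 ± 0.29 (SE), adjusted p = 5.01e-05 against 2208L, where Orc1 had the largest, -2.01 ± 0.25 (SE), adjusted p = 1.71e-06. E2f1 was lower as well, with -2.07 ± 0.21 against AT3 and -1.40 ± 0.21 against 2208L, and so were all 6 MCM genes, from -2.54 to -1.60 against AT3. The exceptions against AT3 were Rfc3 (0.12 ± 0.22 (SE), adjusted p = 0.653), Tyms (-0.30 ± 0.25 (SE), adjusted p = 0.327) and Ccne1 (-0.66 ± 0.30 (SE), adjusted p = 0.0638). Against 2208L they were Rfc3 (-0.07), Rfc2 (-0.42), Pole2 (0.15), Rpa1 (-0.32) and Ccne1 (-0.67). The sign of Rfc3 changed in some alternatives against both models, and that of Pole2 against 2208L. Proliferation markers were lower in PyMT-M for 4 of 6 genes against AT3 and 6 of 6 against 2208L. Epithelial markers summed to 3995 to 6490 CPM in PyMT-M and 204 to 258 CPM in AT3 tumors, and their part in the difference was not tested. The AT3 and PyMT-M tumors were grown in the same mouse strain and the 2208L tumors in another.

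**Figure D4:**
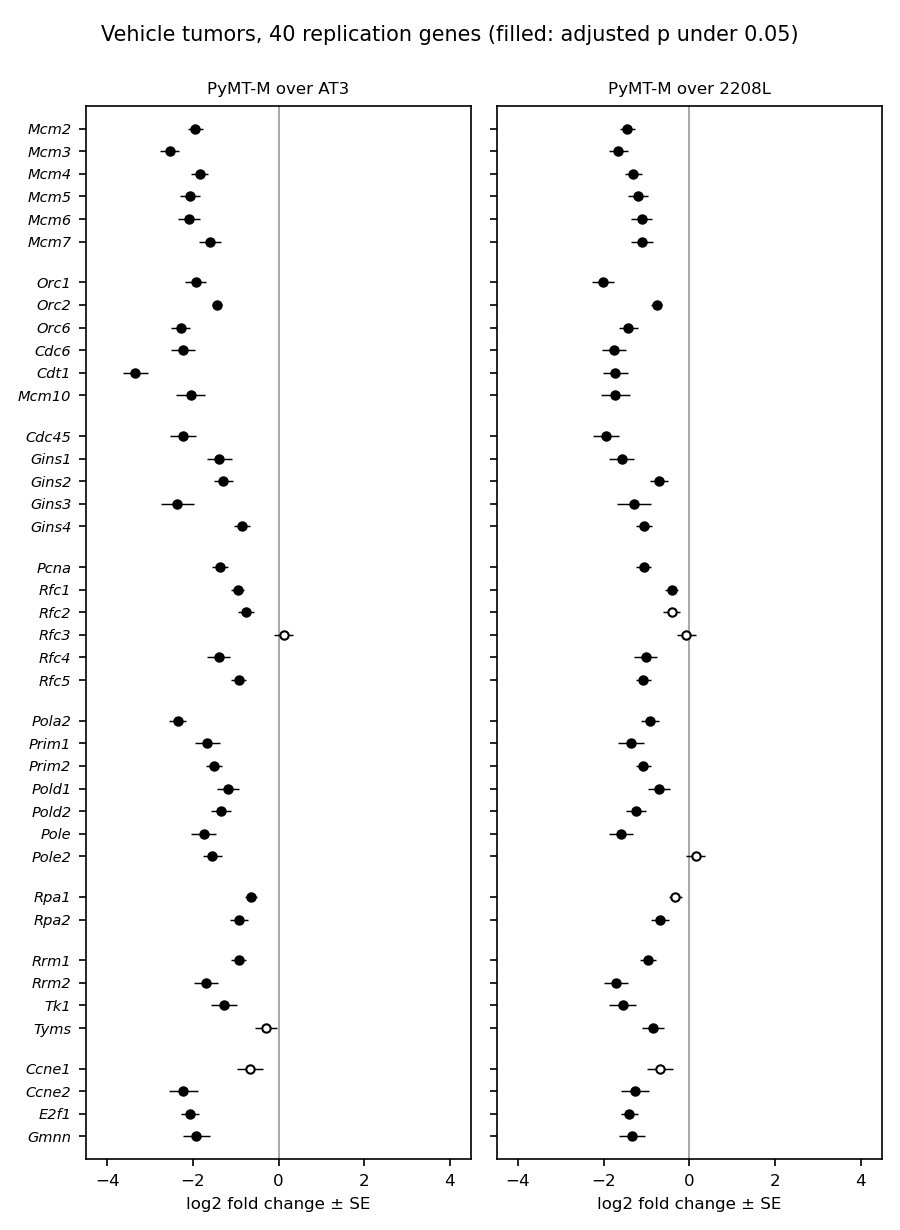
Log2 fold change of spliced reads in vehicle tumors (x axis, PyMT-M over AT3 at left, PyMT-M over 2208L at right, bars are SE) for each of the 40 genes. Filled points have an adjusted p under 0.05, 37 at left and 35 at right, all on the negative side, with Rfc3 near 0 in both.

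Many of these genes are transcribed under E2F factors, so their promoters were searched for the E2F-type motifs TTTCGCGC and TTTGGCGC on both strands. The RefSeq windows (build GRCm38.p6) ran from 250 bases before to 50 bases after the start of the gene. Of 31 members with a window, 8 held a match (25.8%), compared with 0.929% of the 27025 genes that have one. The 8 were Cdt1, Mcm3, Mcm5, Mcm6, Mcm7, Orc1, Pole2 and Rfc3. Of these, Rfc3 was the gene that did not differ between PyMT-M and AT3 vehicle tumors. The matches upstream of the start are shown for the 4 genes that have one, 5′ to 3′ on the gene's strand with each match in capitals. In Mcm6 and in Mcm5 a match on the strand of the gene overlaps a match on the opposite strand. A match is a description of these letters. The share of matches follows from which genes are on the list and not from the RNA measured here. Whether a match bears on the differences between models was not tested.
Mcm6, chr1:128359729-128359831, - strand: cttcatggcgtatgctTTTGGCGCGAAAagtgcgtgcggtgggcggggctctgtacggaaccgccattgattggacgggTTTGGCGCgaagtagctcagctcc
Mcm5, chr8:75109340-75109383, + strand: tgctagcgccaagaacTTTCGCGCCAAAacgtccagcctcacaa
Orc1, chr4:108579411-108579450, + strand: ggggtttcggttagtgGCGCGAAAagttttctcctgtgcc
Rfc3, chr5:151651209-151651234, - strand: aagtgacgtcgcacgcTTTCGCGCtc

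Introns of the replication genes held more reads in H3B-8800 tumors of PyMT-M, AT3 and 2208L. Set against the spliced reads of their gene, 103 of the 200 tested introns rose and 3 fell in PyMT-M, in which 54.7% of all introns rose and 5.67% fell (60.3% in all). In AT3 30 rose and 2 fell, in which 19.4% and 0.321% of all introns did, and in 2208L 40 rose and 1 fell, in which 21% and 0.536% did. The members' share is thus close to that of all introns in each model. In T11 1 intron was higher and 40 lower in libraries labelled H3B-8800 (0.759% and 19.7% of all introns). The 103 introns lie in 35 of the 40 genes. PyMT-M minus AT3 gave 0 calls by edgeR and by limma (0.00576% of all introns passed by edgeR, 0.00384% higher and 0.00192% lower). At an unadjusted p under 0.05 in edgeR were 26 of the 200 introns, where 5763 of all 52042 introns tested were. PyMT-M minus 2208L gave 1 call, intron 14 of Mcm3, on the positive side (0.117% of all introns, 0.0845% higher and 0.0327% lower). That call was lost in 14 of the 32 alternatives in which the intron was tested, among them those without any 1 of the 4 PyMT-M H3B-8800 or 3 2208L H3B-8800 libraries, without PyMT-M vehicle replicate 2 and without 2208L vehicle replicates 2 or 3. Counts for AT3 were 6 without H3B-8800 replicate 2, and 14 and 16 without vehicle replicates 1 and 3. Those for 2208L were 20 without vehicle replicate 1, 24 without H3B-8800 replicate 1 and 11 without the 6 libraries with muscle or B cell transcripts. Those for T11 were 17 without labelled vehicle replicate 2, 21 and 24 without labelled H3B-8800 replicates 1 and 2, and 12 without those 6 libraries.

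In all of PyMT-M, AT3 and 2208L 18 of the 200 introns rose (9%), in 13 genes, where 10.7% of all introns tested did, and 10 of the 18 hold no annotated exon of another transcript. All 18 had a negative fold change in T11 as labelled, and 17 passed there (94.4%). Of all introns that rose in the 3 models, 99.5% had a negative fold change in T11 as labelled and 74.3% passed as lower. The intron with the largest mean difference among the 10 was intron 6 of Cdt1 (chr8:122570539-122571240, + strand, 702 bases, mm10). Cdt1 had 2.98 to 6.21 CPM over all its introns in PyMT-M H3B-8800 tumors, so the percents of this intron there rest on few spliced reads. In PyMT-M the intron had 86.96%, 76.9%, 76.9% and 76.3% in H3B-8800 tumors, against 15.4%, 26.7%, 0% and 22.2% in vehicle tumors. In 2208L it had 46.2%, 62.7% and 49.2% in H3B-8800 tumors, against 7.14%, 18.5% and 16.7% in vehicle tumors, in AT3 40.9% and 71.3% in H3B-8800 tumors, against 17.9%, 46.6% and 13.97% in vehicle tumors, and in T11 17.97%, 19.9% and 20% in libraries labelled H3B-8800, against 55%, 55.1% and 47.1% in libraries labelled vehicle. The groups did not overlap in PyMT-M, 2208L and T11 and overlapped in AT3, and the log2 fold changes were 3.61 ± 0.63 in PyMT-M, 2.63 ± 0.68 in 2208L, 1.88 ± 0.62 in AT3 and -2.03 ± 0.58 in T11 (SE).

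Intron 4 of Gins4 (chr8:23229704-23232604, - strand, 2901 bases) had on average 95.8 reads inside per library. Its percent inside was 72.05%, 67.03%, 64.9% and 70.4% in H3B-8800 tumors, against 27.1%, 22.4%, 38.9% and 24.1% in vehicle tumors, and in AT3 66.7% and 69.9% in H3B-8800 tumors, against 18.5%, 35.03% and 28.4% in vehicle tumors. In 2208L it had 66.3%, 52.7% and 54.7% in H3B-8800 tumors, against 14.7%, 17.1% and 18.9% in vehicle tumors, and in T11 11.4%, 17.1% and 34.98% in libraries labelled H3B-8800, against 54.3%, 72.8% and 66.1% in libraries labelled vehicle. The groups did not overlap in any of the 4 models, and the fold changes were 2.59 ± 0.41 (SE), adjusted p = 2.84e-06 in PyMT-M and 2.47 ± 0.50 (SE), adjusted p = 0.000868 in AT3. Intron 5 of Pola2 (chr19:5953885-5956007, - strand, 2123 bases) had 60.9%, 62.5%, 73.7% and 70.9% in H3B-8800 tumors, against 13.5%, 0%, 0% and 14.3% in vehicle tumors, at 4.96 ± 0.78 (SE), adjusted p = 2.3e-06. Intron 3 of Orc2 (chr1:58483704-58492856, - strand, 9153 bases), the longest of the 10, had 76.3%, 75%, 62.5% and 70.1% in H3B-8800 tumors, against 17.1%, 12.5%, 17.8% and 41.03% in vehicle tumors, at 3.21 ± 0.61 (SE), adjusted p = 3.46e-05. Both were separated from their vehicle groups.

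Among MCM genes, intron 4 of Mcm5 (chr8:75112717-75114164, + strand, 1448 bases) had 64.5%, 79.2%, 59.02% and 69.3% in H3B-8800 tumors, against 12.7%, 0%, 7.41% and 0% in vehicle tumors, at 5.09 ± 0.90 (SE), adjusted p = 1.67e-05. Intron 9 of Mcm2 (chr6:88887971-88888171, - strand, 201 bases) averaged 43.8% in H3B-8800 and 2.00% in vehicle PyMT-M tumors. Intron 11 of Mcm3 (chr1:20808872-20809595, - strand, 724 bases) averaged 30.3% in H3B-8800 and 1.00% in vehicle tumors, and intron 14 of Mcm6 (chr1:128334919-128335729, - strand, 811 bases) 22.6% in H3B-8800 and 1.42% in vehicle tumors. The levels of these 4 genes passed in no model, so their spliced RNA was not shown to differ while the introns rose. Intron 5 of Gmnn (chr13:24753459-24753657, - strand, 199 bases) had 35.3%, 33.3%, 44.4% and 44.9% in H3B-8800 tumors, against 0%, 0%, 0% and 0% in vehicle tumors. No read lay in it in the 4 vehicle libraries, so no fold change is given there. In AT3 it averaged 13.6% in H3B-8800 and 1.03% in vehicle tumors, and in 2208L 13.6% in H3B-8800 and 1.73% in vehicle tumors. Intron 5 of Rfc2 (chr5:134590978-134591118, + strand, 141 bases) averaged 13.5% in H3B-8800 and 0.420% in vehicle PyMT-M tumors, and 15.1% in H3B-8800 and 1.71% in vehicle AT3 tumors. In AT3 the call of Gins4 intron 4 held in all 34 alternatives run, and those of the other 9 introns were lost in 1 to 5 of them.

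**Figure D5:**
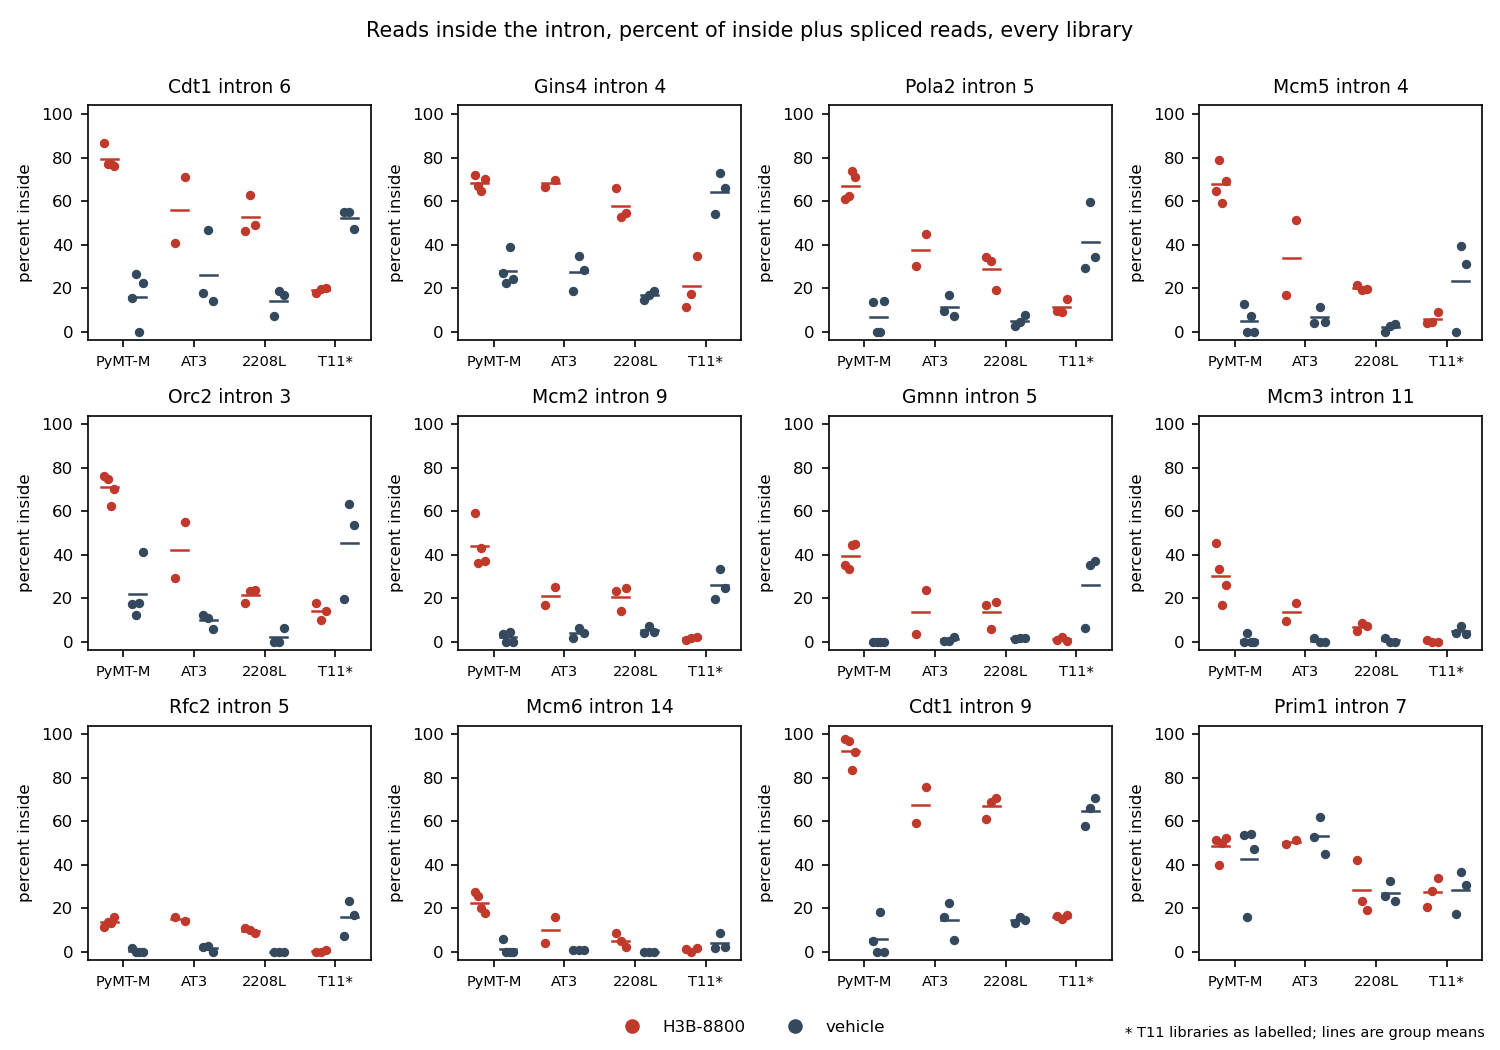
Percent of reads inside 12 introns (y axes, 0 to 100) in each library, H3B-8800 left of vehicle in each model. Points are libraries and lines are group means. The first 10 introns rose in PyMT-M, AT3 and 2208L and hold no annotated exon, Cdt1 intron 9 rose in the same 3 models, and Prim1 intron 7, an AT-AC intron, passed in none.

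Decreases were few. Intron 8 of Mcm5 (chr8:75119369-75120779, + strand, 1411 bases) fell in PyMT-M and AT3. It had 2.56%, 0%, 0% and 0% in H3B-8800 tumors, against 12.5%, 0%, 5.00% and 34.04% in vehicle tumors, and 0.735% and 0% in H3B-8800 tumors, against 14.3%, 21.3% and 3.69% in vehicle tumors in AT3. The 2 AT3 groups were separate and the PyMT-M groups overlapped, at -4.10 ± 1.30 (SE), adjusted p = 0.00685 and -5.02 ± 1.37 (SE), adjusted p = 0.00944. Mcm5 thus had intron 4 higher and intron 8 lower in the same tumors. Rfc2 likewise had intron 5 higher and intron 6 (chr5:134591220-134593188, + strand, 1969 bases) lower in PyMT-M, with 48.6%, 48.1%, 31.2% and 51.96% in H3B-8800 tumors, against 62.3%, 50.97%, 63.2% and 67.7% in vehicle tumors, at -0.91 ± 0.38 (SE), adjusted p = 0.0384. Intron 5 of Tyms (chr5:30062040-30063235, - strand, 1196 bases) fell in 2208L at -2.94 ± 0.85 (SE), adjusted p = 0.0128, with 0%, 0% and 3.03% in H3B-8800 tumors, against 5.49%, 6.51% and 12.1% in vehicle tumors. The other decreases, named here after their values were seen, were intron 2 of Tyms in PyMT-M (9.78% in H3B-8800 and 28.96% in vehicle tumors) and intron 1 of Tyms in AT3, which had no read inside in H3B-8800 and averaged 7.50% in vehicle tumors. Introns 6 of Rfc2 and 2 and 5 of Tyms hold an annotated exon, so reads of another transcript can enter their percent.

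Level and intron changes did not fall on the same genes throughout. In PyMT-M the 16 genes that fell had 51 of 95 tested introns higher (53.7%), and the 23 genes not called had 51 of 99 higher (51.5%). Mcm7 fell in PyMT-M with 0 of 7 introns higher, while Mcm2 had 6 of 7 introns higher at a level change of 0.03, and Rrm2 had 5 of 5 higher at -0.41. Cdt1 had 7 of 7 introns higher and Pold1 10 of 12, and both genes fell. Because an intron is tested relative to the spliced reads of its gene, a loss of spliced reads alone also raises it. The introns that rose in PyMT-M had a median length of 1202 bases (76 to 9748) and those not called 1179 bases. Of the 103 that rose 3 were the first and 9 the last intron of the gene, and of the 94 not called 10 were the first and 17 the last.

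Sequences are shown to set introns that rose beside introns that were not called, since SF3B acts near the 3′ end of an intron. The genome itself was not used, so only introns covered by an exon of an annotated retained-intron transcript (GENCODE M21, GRCm38) could be read, 19 of the tested ones. The 4 with the smallest p among those that rose in PyMT-M and the 4 with the largest p among those not called are given by their last 60 bases, 5′ to 3′, with bases 4 to 23 from the end in capitals, the stretch in which pyrimidines were counted.
Cdt1 intron 9, rose, chr8:122572434-122572493, + strand: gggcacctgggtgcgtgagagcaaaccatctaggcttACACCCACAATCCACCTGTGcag
Rfc3 intron 8, rose, chr5:151643104-151643163, - strand: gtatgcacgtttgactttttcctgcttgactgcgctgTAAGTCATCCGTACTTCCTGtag
Pold1 intron 19, rose, chr7:44535193-44535252, - strand: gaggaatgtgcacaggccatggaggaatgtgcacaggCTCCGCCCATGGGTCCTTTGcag
Mcm3 intron 14, rose, chr1:20805340-20805399, - strand: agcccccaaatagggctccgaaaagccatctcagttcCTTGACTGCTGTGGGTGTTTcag
Rfc5 intron 10, not called, chr5:117379907-117379966, - strand: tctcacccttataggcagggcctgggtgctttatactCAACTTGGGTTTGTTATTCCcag
Rfc3 intron 6, not called, chr5:151644712-151644771, - strand: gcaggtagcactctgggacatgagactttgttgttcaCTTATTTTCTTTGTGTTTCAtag
Prim1 intron 7, not called, chr10:128023523-128023582, + strand: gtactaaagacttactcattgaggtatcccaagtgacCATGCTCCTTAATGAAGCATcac
Rfc5 intron 8, not called, chr5:117381914-117381973, - strand: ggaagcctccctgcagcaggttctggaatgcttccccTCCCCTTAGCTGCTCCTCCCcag

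Over the 19 introns the capital stretch was 65% pyrimidine in the median of the 12 that rose (range 55% to 85%) and 70% in the 7 not called (55% to 85%), and the whole introns had a median GC content of 53.0% among those that rose and 44.9% among those not called. Intron 9 of Cdt1, chosen here after its values were seen, had 97.8%, 96.8%, 83.3% and 91.8% in H3B-8800 tumors, against 5.00%, 0%, 18.2% and 0% in vehicle tumors, at 6.43 ± 0.72 (SE), adjusted p = 8.88e-09. It rose in AT3 and 2208L as well, at 3.23 ± 0.60 and 2.99 ± 0.61, and fell in T11 as labelled at -3.13 ± 0.56. Within Rfc3, intron 8 averaged 66.1% in H3B-8800 and 14.6% in vehicle PyMT-M tumors, and intron 6 8.07% in H3B-8800 and 5.98% in vehicle tumors. Intron 7 of Prim1 begins atatcctttc and ends in AC. Introns with AT and AC at their ends are as a rule removed by the minor spliceosome, which also contains SF3B. It had 51.4%, 40%, 50% and 52.1% in H3B-8800 tumors, against 53.4%, 15.8%, 54.1% and 47.3% in vehicle tumors, with overlap, and the log2 fold change was 0.26 ± 0.49 (SE), adjusted p = 0.656. A test that was not passed does not show that the intron was unaffected.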

How the data were processed

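RNA of 25 whole tumors in 8 groups was analysed. Per the labels' protocols, polyadenylated RNA kept in RNAlater was made into stranded libraries. HISAT2 2.0.4 is named in the submitters' processing notes, and for the counting tool and annotation the sources used here give no name. The authors deposited, for each intron in each library, a count of reads inside the intron, a count of reads overlapping it, and an RPKM value, which was used only to check the count columns. Spliced reads were taken as overlapping minus inside reads and summed per gene. Genes with at least 1 CPM in at least 2 libraries were tested with edgeR 4.0.16 in R 4.3.3 (TMM, robust quasi-likelihood test, 8 group means over the 25 libraries, Benjamini-Hochberg adjustment over all genes, threshold 0.05). Introns with a mean of at least 5 inside and 10 spliced reads were tested likewise, the offset being log spliced reads per gene (floor 0.5), with adjustment over all introns. The SE was obtained as the absolute log2 fold change over the root of F. limma 3.58.1 and DESeq2 1.42.0 were alternatives. The tests were checked on simulated data in which only a small part of the genes or introns changed. That check does not cover a setting in which many introns change, as in PyMT-M. The p-values rest on the spread between tumors within groups, estimated for each gene or intron over all 8 groups together. A p-value for a model, such as AT3 with 2 treated libraries, thus also draws on the spread in the other models.

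The 40 genes and all lists were chosen with earlier results of these data known. The genes described by library are those with the smallest p for the mean effect of PyMT-M, AT3 and 2208L in each role group. The introns described are those without an annotated exon that rose in all 3 models, plus introns that fell, and any other is said to have been chosen after its values were seen. Introns with inside reads can also hold unspliced precursor RNA, which the counts do not separate.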

Additional observations from a re-analysis of the deposited data

Results flagged for a closer look

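In PyMT-M H3B-8800 tumors, replicate 4 stood far above the other 3 in Mcm3 (72.8 CPM), Cdt1 (6.21 CPM), Pole (21.8 CPM), Rpa2 (31.0 CPM) and Rrm2 (61.8 CPM). In PyMT-M vehicle tumors, replicate 3 was far below the others in Mcm4 (47.1 CPM), replicate 2 far above in Gins3 (1.09 CPM) and replicate 4 far above in Tyms (88.4 CPM). Among introns, H3B-8800 replicate 1 was far above its group in Cdt1 intron 6 (87.0% inside) and Mcm5 intron 8 (2.56%). Vehicle replicate 2 was far above in Mcm3 intron 11 (4.0%), and vehicle replicate 1 in Rfc2 intron 5 (1.68%) and Mcm6 intron 14 (5.68%). Pooled over the members' introns without an annotated exon, vehicle replicate 2 was far below the others, at 7.42%. These are 14 flags over 112 groups of 4 libraries, and chance flags about 1 in 20 groups. For Mcm3 intron 11, Rfc2 intron 5, Mcm6 intron 14 and Mcm5 intron 8 the other 3 libraries had no read inside, so any value above 0 would have stood out, and that rate does not apply to these 4.

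Effects that differed between models by the test of the difference were those of Cdc45, at -1.84 (log2) for PyMT-M minus AT3, and of Mcm3 intron 14, at 17.8 percentage points for PyMT-M minus 2208L. The call of Cdc45 was lost in 28 of 36 alternatives, and that of Mcm3 intron 14 in 14 of the 32 in which it was tested. Other genes moved in opposite directions without overlap between a model and T11 as labelled. These differences were not tested, and the share of all genes that did so was not counted. PyMT-M minus T11 was -2.75 for Mcm10, -1.20 for Orc2, -1.81 for Pola2, -1.77 for Pold1 and -2.31 for Pole2. AT3 minus T11 was -1.74 for Mcm10, -1.10 for Orc2 and -0.97 for Pola2. For 2208L minus T11 the values were -1.60 for Mcm10, -0.78 for Orc2, -1.52 for Pola2, -1.63 for Pold1 and -1.68 for Pole2.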

How the results depend on the processing

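Of the single genes and introns followed under the alternatives, 3235 results kept direction and call, 289 lost the call, 2 gained one and 5 changed sign. The sign changes were Rfc3 in vehicle tumors of PyMT-M over AT3 (-0.026 without PyMT-M vehicle replicate 4, at most 0.20 without 1 library) and over 2208L (0.0053 without the 6 libraries with muscle or B cell transcripts, 0.0070 without PyMT-M vehicle replicate 3 and 0.0041 without 2208L vehicle replicate 1, at least -0.22 without 1 library), and Pole2 over 2208L (-0.091 with the median spliced reads over introns as level). Without those 6 libraries 7 genes were called in PyMT-M, 0 in 2208L, 0 in T11 and 9 over the mean of 3 models, with 11 introns in 2208L and 12 in T11. In AT3 DESeq2 and overlapping reads as level gave 1 gene each, and in 2208L a fit to its own libraries gave 16. In T11 the gene count was 1 with DESeq2 size factors and with overlapping reads, 4 without TMM, 5 with median spliced reads and 0 in a fit to its own libraries. PyMT-M minus AT3 gave 3 genes with DESeq2 and 0 under DESeq2 size factors, no TMM, no filter, a CPM of at least 5, overlapping or median reads, own libraries only, the replicate block and without the 6 libraries. A mean of at least 20 inside and 20 spliced reads left 35 introns called in PyMT-M, 13 in AT3, 19 in 2208L and 18 in T11, and introns without an annotated exon 60, 20, 20 and 25, since fewer were tested. At least 1 inside and 10 spliced reads gave 167 in PyMT-M. The intron of PyMT-M minus 2208L was not tested under 20 reads or among introns without an annotated exon, since those filters removed it. It was tested but not called (0) with own libraries, the replicate block, without the 6 libraries or without the T11 libraries. Leaving out the T11 libraries was an alternative chosen after seeing the data. Without TMM the members' median was -0.31 in AT3 (all genes -0.20) and 0.22 in T11 (all genes 0.17). The cause of these shifts was not tested.

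Leaving out 1 library at a time gave 10 to 23 genes in PyMT-M, 0 to 1 in AT3 (1 without T11 labelled vehicle replicate 1), 0 to 9 in 2208L, 0 to 6 in T11, 10 to 21 over the mean of 3 models, 0 to 4 for PyMT-M minus AT3 (4 without PyMT-M H3B-8800 replicate 4 or AT3 H3B-8800 replicate 2), 0 to 1 for PyMT-M minus 2208L (1 without PyMT-M H3B-8800 replicate 4), 37 to 39 in vehicle tumors over AT3 and 33 to 36 over 2208L. Introns numbered 84 to 110 in PyMT-M, 6 to 45 in AT3, 20 to 45 in 2208L, 17 to 51 in T11, and 0 to 1 for both differences between models. The members' median lay between -0.75 and -0.31 in PyMT-M and between -0.59 and -0.36 in 2208L. It changed sign in AT3, from -0.27 to 0.14, and in T11 as labelled, from -0.07 to 0.16. Deviations of same-numbered libraries had r of 0.077, 0.039, 0.369 and 0.103 in PyMT-M, where pairs of unlike number lay between -0.225 and 0.165. In the other models r was negative for some same-numbered pairs. The 2 treated AT3 libraries deviate by equal and opposite amounts, so their r cannot inform. The labels do not say that the numbers pair the tumors, and these values do not settle it. With the replicate block the counts were 18, 0, 7 and 1 genes and 103, 11, 36 and 29 introns in PyMT-M, AT3, 2208L and T11.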
